A study of Mus musculus with 6 samples.

Results

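Gluconeogenesis was examined in the mouse liver through 10 genes: Pck1, Pck2, G6pc, Fbp1, Pcx and Mdh1, which encode enzymes, Slc37a4, which encodes a transporter, Gcgr, which encodes the glucagon receptor, and Ppargc1a and Crtc2, which encode coactivators of transcription. A probe was taken as a member when it was not a control probe and its RefSeq accession belonged to one of these genes, whatever its signal. All 10 genes were on the array, with 14 of its 56605 probes, and 22911 genes had a symbol in all. A probe that the scanner software marked as well above background on an array is called detected there. The brightest probe of each of the 10 genes was detected on all 6 arrays, as were 13 of the 14 probes.

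The livers came from 2 groups of 3 male mice, 12 weeks old, given food without restriction for 4 weeks. The control group ate granulated regular chow, and the soy group ate granulated chow that held 25% soy bean. Total RNA from a piece of the right hepatic lobe of each mouse was labelled with Cy3 and measured on 1 Agilent mouse expression array (G3, version 2), so that each array is 1 mouse. No genotype, transgene or drug is named for either group, and the strain, the hour of collection and the feeding state at collection are not given in the sources used here. Several genes described below are known to move with fasting or the hour of the day, and the part of either in their differences was not tested. All 6 hepatocyte markers looked at (Alb, Ttr, Apoa1, Apob, Trf and Fga) were detected on all arrays. A piece of whole liver holds several cell types, and in such bulk RNA fewer cells of a type and less RNA per cell cannot be told apart.

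Gluconeogenesis makes glucose from lactate, alanine and glycerol, and the liver uses it to keep blood glucose steady between meals. Pyruvate carboxylase (Pcx) and phosphoenolpyruvate carboxykinase (Pck1 in the cytosol, Pck2 in mitochondria) turn pyruvate into phosphoenolpyruvate, fructose-1,6-bisphosphatase (Fbp1) and glucose-6-phosphatase (G6pc) carry out the later irreversible steps, and the remaining steps are shared with glycolysis. Glucagon raises cAMP in hepatocytes, which activates the factor CREB and its coactivator CRTC2 at Pck1, G6pc and Ppargc1a, and PGC-1alpha, the product of Ppargc1a, acts with FOXO1 and HNF4alpha on the same enzyme genes, whereas insulin represses them.

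The promoters of the 3 genes that this cAMP pathway is best known to act on are shown first, since Pck1 and G6pc are the members whose signal differed most between the diets and Ppargc1a is the regulator. The 250 bases before the start of each gene were taken from RefSeq (GRCm38.p6), 5′ to 3′ on the strand of the gene, and capitals mark matches to cAMP response element letters. The windows are chr2:173152823-173153072 on the plus strand for Pck1, chr11:101367466-101367715 on the plus strand for G6pc and chr5:51567726-51567975 on the minus strand for Ppargc1a.
Pck1: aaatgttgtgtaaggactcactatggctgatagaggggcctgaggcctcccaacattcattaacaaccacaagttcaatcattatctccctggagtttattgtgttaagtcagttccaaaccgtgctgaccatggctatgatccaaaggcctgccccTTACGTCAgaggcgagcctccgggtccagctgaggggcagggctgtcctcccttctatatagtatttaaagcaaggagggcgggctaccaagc
G6pc: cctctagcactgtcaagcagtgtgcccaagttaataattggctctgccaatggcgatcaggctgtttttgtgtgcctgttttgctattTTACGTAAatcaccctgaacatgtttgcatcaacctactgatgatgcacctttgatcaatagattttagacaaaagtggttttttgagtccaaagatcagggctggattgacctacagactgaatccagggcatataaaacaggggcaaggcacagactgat
Ppargc1a: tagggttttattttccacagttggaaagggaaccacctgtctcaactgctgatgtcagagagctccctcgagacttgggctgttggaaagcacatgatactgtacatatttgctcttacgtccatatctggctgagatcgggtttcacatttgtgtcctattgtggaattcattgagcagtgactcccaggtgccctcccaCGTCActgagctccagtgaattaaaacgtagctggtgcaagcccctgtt

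Of the 10 members, 9 were matched in the promoter table, with 12 windows among its 32851, and Crtc2 was not matched. The full cAMP element TGACGTCA was found in none of the 12 windows and in 1.55% of all windows. The form TTACGTNA, which was chosen after the Pck1 and G6pc windows had been read, lay at -93 to -86 from the start of Pck1 and at -162 to -155 from that of G6pc, and in 0.788% of all windows. The short form TGACG, searched on both strands, overlapped the Pck1 match at -90 to -86 and lay at -49 to -45 in Ppargc1a. It was also in 2 Slc37a4 windows, against 17.8% of all windows. These 2 windows overlap, and the match at -61 to -57 in 1 is the same site as that at -214 to -210 in the other. The FOXO letters TGTTTAC (3.17% of all windows) were in no member window, and their T-rich form TGTTTTNG (3.53%) was in G6pc alone, at -188 to -181. A TATAAA box, held by 12.4% of all windows, lay at -29 to -24 in G6pc and at -32 to -27 in 1 Slc37a4 window. These matches describe letters only, and a window without a match may hold other forms of the same site.

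No gluconeogenesis gene passed the test of soy against control. A probe passed at a Benjamini-Hochberg adjusted p under 0.05 by limma with a fold above 1.5 or under 0.66, and 0 of the 10 genes did, where 198 of all probes (0.35%) and 122 of 22911 genes (0.532%) passed, with 0.34% of genes higher and 0.192% lower in soy livers. At an unadjusted p under 0.05 on the brightest probe, 2 of the 10 genes (Pck1 and G6pc) were counted, beside 14.3% of all genes. The groups did not overlap for 1 of the 10, Pck1, as for 20.5% of all genes. Every soy value of Pck1 was below every control value, which held for 10.8% of all genes. The member genes had a median log2 difference (soy minus control) of -0.05, beside -0.01 for all genes. In soy livers 4 members were higher and 6 lower, beside 48.8% of all genes higher, with 5 higher under the processed signal and under cyclic loess and 3 higher under a 75th-percentile shift, since Pcx and Fbp1 lay near 0 and changed sign.

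**Figure D1:**
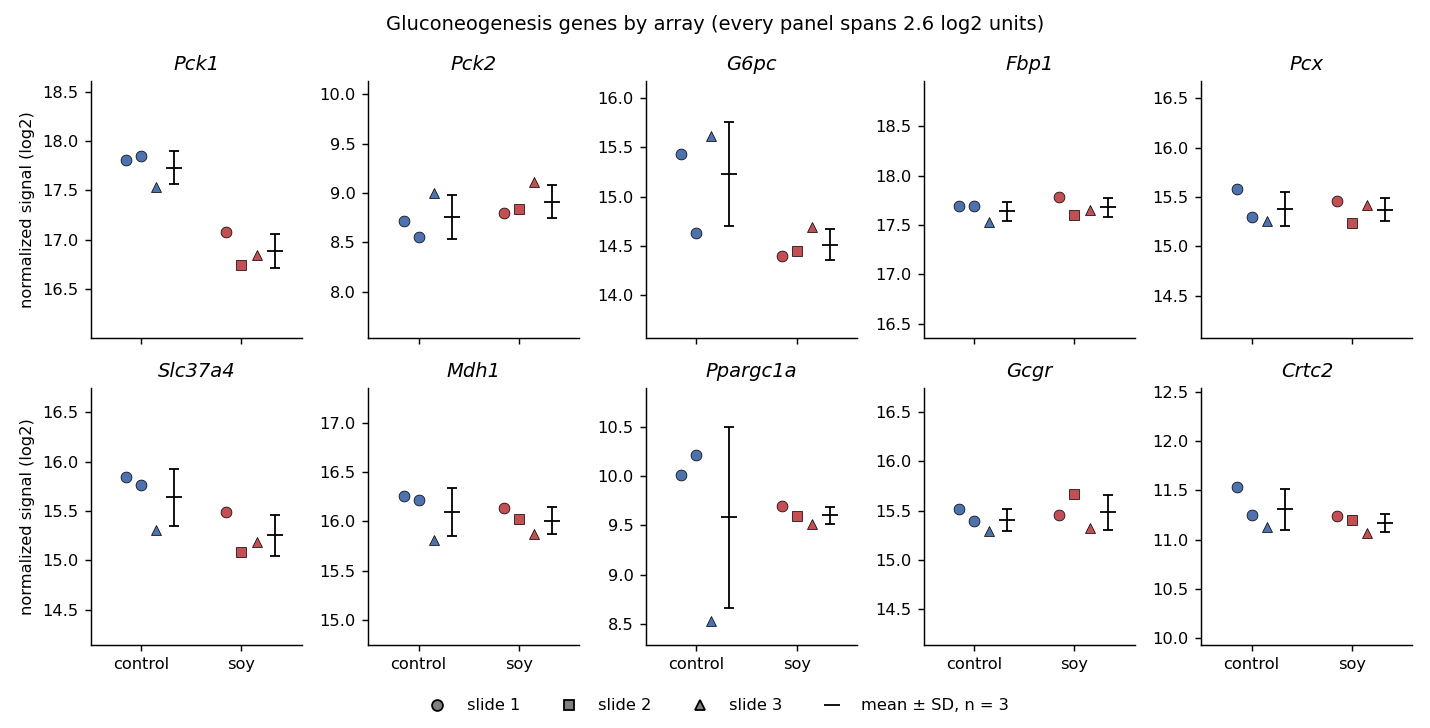
Normalized signal (log2) of the brightest probe of each gluconeogenesis gene on each array, with the shape of a point giving its slide and the bar giving mean ± SD of 3 arrays per group. Pck1 is the panel in which the groups stand apart, with control values from 17.54 to 17.85 and soy values from 16.74 to 17.07, and the control 3 array is low for Ppargc1a.

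Pck1 (NM_011044), which encodes the cytosolic carboxykinase and is among the most strongly hormone-regulated genes of the liver, had the clearest difference. Its normalized signal (log2) was 17.81, 17.85 and 17.54 on control arrays 1, 2 and 3, against 17.07, 16.74 and 16.84 on soy arrays 1, 2 and 3. The soy arrays all lay below the control arrays. The difference was -0.84 (SE 0.13, 95% interval -1.15 to -0.54), a fold of 0.557, with an unadjusted p of 0.000269 and a limma adjusted p of 0.0568, just above the threshold. Among all probes, 1.73% had a larger absolute difference and 0.472% had a smaller p. Control 1, control 2 and soy 1 shared slide 1, control 3 and soy 3 shared slide 3, and soy 2 was alone on slide 2. The Pck1 difference was -0.75 within slide 1 and -0.70 within slide 3. Of 18 alternatives that refit the values (calling by adjusted p alone refits none), Pck1 passed under 6 (adjusted p from 0.00896 to 0.0480) and did not under the other 12 (up to 0.186), with a difference between -0.94 and -0.73. The Pck1 call therefore depends on the processing, whereas its sign does not across these alternatives.

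The mitochondrial form Pck2 (NM_028994) did not share this pattern. It read 8.71, 8.56 and 8.997 in control and 8.80, 8.84 and 9.11 in soy livers, with overlapping groups and a difference of 0.16 (SE 0.15, 95% interval -0.18 to 0.50, limma adjusted p = 0.731). A second Pck2 probe was detected on no array. The difference between the diet effects on Pck1 and Pck2 was not tested.

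G6pc (NM_008061), the catalytic subunit of glucose-6-phosphatase that releases free glucose from hepatocytes, had the second smallest p among the members. Its signal was 15.44, 14.63 and 15.62 on the control arrays, against 14.40, 14.45 and 14.70 on those of soy mice. Control 2 was low and fell between the soy values, whereas control 1 and control 3 lay above all of them. The difference was -0.71 (SE 0.25, 95% interval -1.29 to -0.14), a fold of 0.610, with an unadjusted p of 0.0210 and a limma adjusted p of 0.324. It was -0.64 within slide 1 and -0.92 within slide 3. Leaving out control 2 gave -1.01 (adjusted p = 0.0921), and leaving out control 3 gave -0.52 (adjusted p = 0.531). G6pc passed under none of the 18 alternatives (adjusted p from 0.0921 to 0.563).

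Slc37a4 (NM_001293630) encodes the transporter that carries glucose-6-phosphate to G6pc inside the endoplasmic reticulum. It read 15.85, 15.76 and 15.31 in control and 15.49, 15.09 and 15.18 in soy livers. The groups overlapped through control 3, and the difference of -0.39 (SE 0.17, 95% interval -0.79 to 0.01, limma adjusted p = 0.451) was -0.32 within slide 1 and -0.13 within slide 3.

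The other enzyme genes lay close to 0. Fbp1 (NM_019395) was 17.69, 17.70 and 17.53 in control and 17.79, 17.60 and 17.65 in soy livers, a difference of 0.04 (SE 0.10, 95% interval -0.20 to 0.28, limma adjusted p = 0.916). Pcx (NM_001162946), whose product starts the pathway in mitochondria, was 15.58, 15.30 and 15.25 against 15.46, 15.24 and 15.42, a difference of -0.01 (SE 0.12, 95% interval -0.30 to 0.28, limma adjusted p = 0.993). For both, these intervals leave out a fold as low as that of Pck1. Mdh1 (NM_008618), the cytosolic malate dehydrogenase that turns exported malate back into oxaloacetate, was 16.26, 16.22 and 15.82 against 16.13, 16.02 and 15.87, a difference of -0.09 (SE 0.15, limma adjusted p = 0.855), and its other probe gave -0.13.

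**Figure D2:**
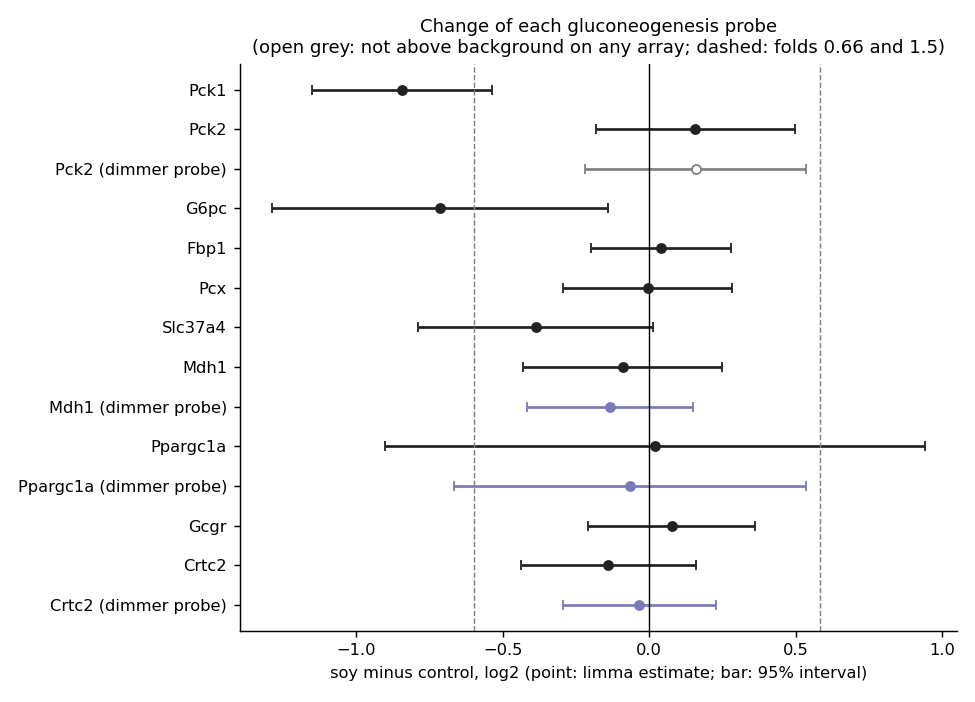
Difference soy minus control (log2) of each of the 14 gluconeogenesis probes with its 95% interval from limma, with dashed lines at the folds of 0.66 and 1.5 used for calls. The intervals of Pck1 (-1.15 to -0.54) and G6pc (-1.29 to -0.14) lie below 0, and that of the brighter Ppargc1a probe (-0.90 to 0.94) spans both fold lines.

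Ppargc1a (NM_008904), which encodes PGC-1alpha, differed more among control mice than between the diets. Its brighter probe read 10.01, 10.21 and 8.53 on the control arrays, against 9.69, 9.60 and 9.52 on those of soy mice. Control 3 was the lowest of the 6 arrays, whereas control 1 and control 2 were above all soy arrays. The dimmer probe showed the same low array, with 8.49, 9.07 and 7.94 in control and 8.57, 8.32 and 8.42 in soy livers. The SD over the arrays was 0.92 in control and 0.09 in soy livers on the brighter probe, and 0.57 and 0.13 on the dimmer one. The mean difference was 0.02 (SE 0.40, 95% interval -0.90 to 0.94, limma adjusted p = 0.992) on the brighter probe and -0.07 (SE 0.26) on the dimmer one. Control 3 sets this value, since the difference was -0.42 within slide 1 and 0.99 within slide 3, and -0.51 (adjusted p = 0.198) without control 3. A fold of 1.5 in either direction therefore lies within the interval and was not detectable with these arrays.

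The glucagon receptor gene Gcgr (NM_008101) read 15.52, 15.40 and 15.29 in control and 15.46, 15.67 and 15.32 in soy livers, a difference of 0.08 (SE 0.12, 95% interval -0.21 to 0.36, limma adjusted p = 0.852). Crtc2 (NM_028881), whose product carries the cAMP signal to CREB, read 11.54, 11.25 and 11.13 against 11.24, 11.20 and 11.07, a difference of -0.14 (SE 0.13, 95% interval -0.44 to 0.16, limma adjusted p = 0.730). The groups overlapped for both, and the second Crtc2 probe gave -0.03. Messenger RNA levels do not measure the activity of either protein, which is set after translation.

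**Figure D3:**
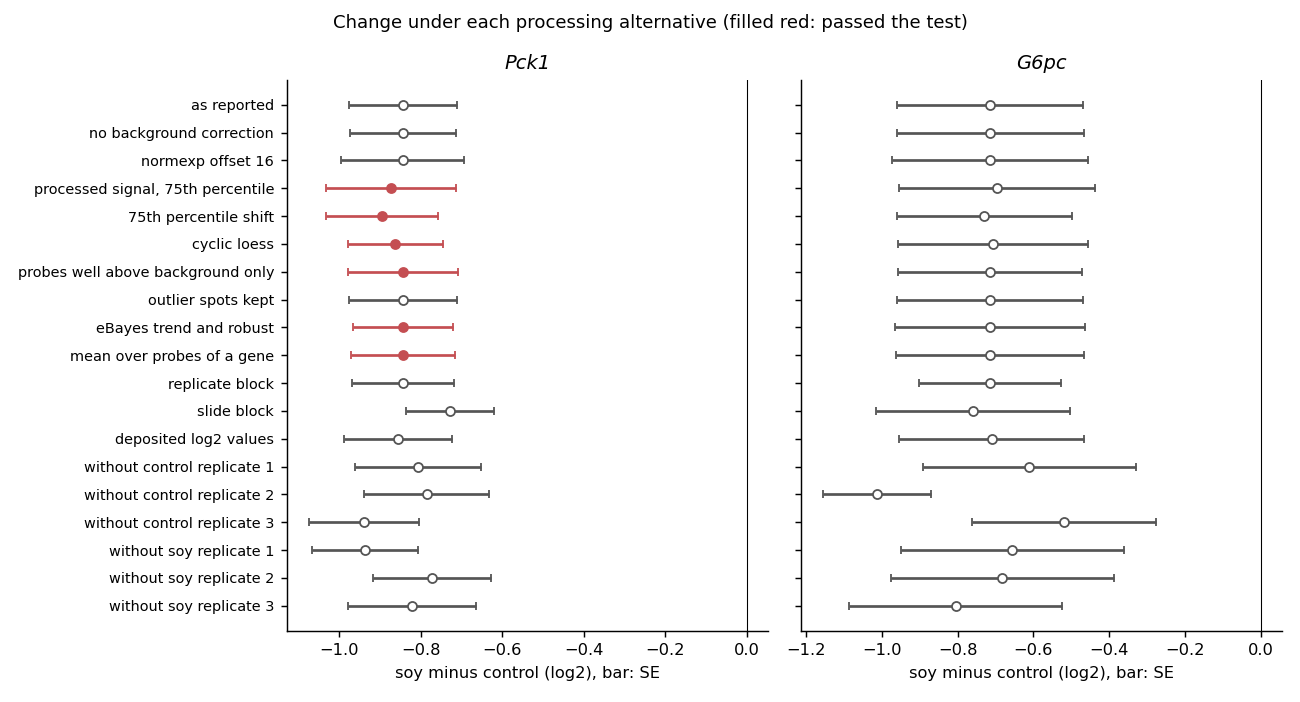
Difference soy minus control (log2) with its SE for Pck1 and G6pc as reported and under each of 18 alternatives in processing, in red where the gene passed the test. All estimates are below 0, Pck1 is red under 6 alternatives and G6pc under none.

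The genes around the pathway were described through 8 further sets with 93 genes, by the same fit. Of the 93, 6 passed (6.45%), 1 higher and 5 lower in soy livers, beside 0.532% of all genes. These sets were written with earlier results of the same arrays known, so this share is a description. Pfkfb3, Got1, Pde4b, Igfbp1 and Lpin1 fell and Pdk4 rose.

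**Figure D4:**
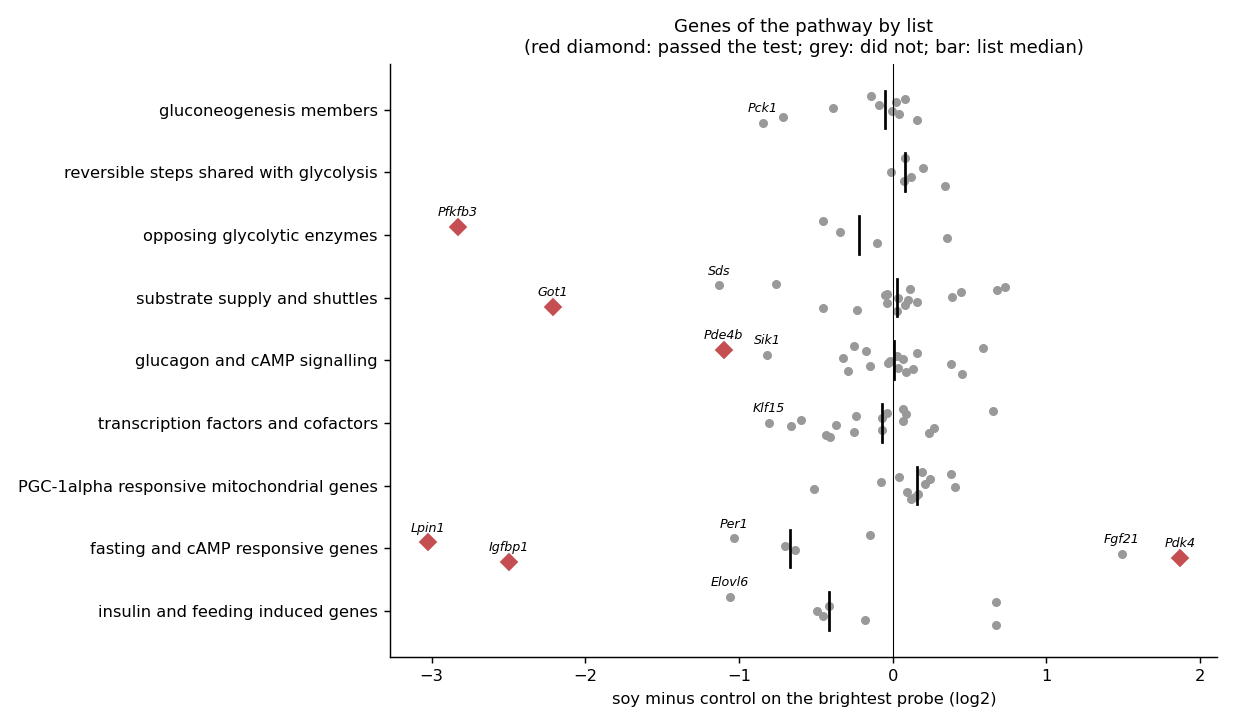
Difference soy minus control (log2) on the brightest probe of each gene, by list, with a black bar at each list's median and red diamonds for genes that passed the test (a few genes that count in the medians are not drawn). The gluconeogenesis genes have a median of -0.05, and the genes that passed lie at -3.02 (Lpin1), -2.83 (Pfkfb3), -2.50 (Igfbp1), -2.21 (Got1), -1.10 (Pde4b) and 1.87 (Pdk4).

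Among the 7 genes of the reversible steps shared with glycolysis, 0 passed by limma, 1 had an unadjusted p under 0.05 (beside 14.3% of all genes), and the median difference was 0.08. Eno1, the enolase gene, had the largest difference in this list, 0.34 (SE 0.10, limma adjusted p = 0.228), followed by Tpi1 at 0.20 and Pgk1 at 0.12. Every soy value of Eno1 and Tpi1 was above every control value, as for 9.68% of all genes, but these differences did not pass the test.

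Of the 6 genes whose products run the opposing glycolytic steps or set them, 1 passed and was lower in soy livers, beside 0.532% of all genes that passed. An unadjusted p under 0.05 was found for 4 of the 6, beside 14.3% of all genes, and the median difference was -0.22. Pfkfb3 (NM_133232) encodes an enzyme that makes and breaks fructose-2,6-bisphosphate, the metabolite that activates phosphofructokinase and inhibits Fbp1. It read 12.49, 12.33 and 12.38 on the control arrays, against 9.72, 9.19 and 9.80 on those of soy mice. The soy arrays lay far below the control arrays, and Pfkfb3 fell by 2.83 on the log2 scale (SE 0.17, limma adjusted p = 0.00301), with -2.69 within slide 1 and -2.58 within slide 3. It passed under all 18 alternatives, with -1.69 for the mean over its probes. Its dimmer probe, detected on 1 of 3 soy arrays, gave -0.56 (adjusted p = 0.347).

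Of the other genes of this list, Pklr, the liver pyruvate kinase gene, was at -0.45 (SE 0.23), Pfkl at 0.36 (adjusted p = 0.339) and Pfkfb1 at -0.34 (adjusted p = 0.329).

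Substrates reach the pathway through transaminases, shuttles and carriers, and 1 of 18 such genes passed, beside 0.532% of all genes. An unadjusted p under 0.05 was found for 7 of the 18, beside 14.3% of all genes. The median of this list was 0.03, and below 0 under a 75th-percentile shift (-0.03) and under cyclic loess (-0.01). Got1 (NM_010324), the cytosolic aspartate transaminase of the malate-aspartate shuttle, read 16.76, 16.33 and 15.59 in control and 14.09, 14.17 and 13.79 in soy livers. The soy arrays lay below all control arrays, and Got1 fell by 2.21 (SE 0.28, limma adjusted p = 0.0310) on 1 probe. The other Got1 probe was at -2.23 (adjusted p = 0.0177). The difference was -2.45 within slide 1 and -1.80 within slide 3. On the brighter probe Got1 passed without control 3 (adjusted p = 0.0151), but not without control 1 (0.0546), control 2 (0.109), soy 1 (0.1002), soy 2 (0.113) or soy 3 (0.119), nor with slide as a block (0.0870) or with a normexp offset of 16 (0.0540).

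Sds, the serine dehydratase that turns serine into pyruvate, read 14.92, 15.01 and 13.95 against 13.56, 13.42 and 13.51, a difference of -1.13 (SE 0.26, limma adjusted p = 0.152) without overlap between the groups. Control 3 was the lowest control array for Sds, and without it Sds passed (adjusted p = 0.0177). Tat, the tyrosine transaminase gene, was at -0.76 (adjusted p = 0.323). Among genes higher in soy livers were Slc16a1, a lactate and pyruvate transporter gene, at 0.73 (adjusted p = 0.219), and Gpd1, which links glycerol to the pathway, at 0.68 (adjusted p = 0.128). None of these 4 differences passed by the test used here with all 6 arrays. With the scanner's processed signal shifted to the 75th percentile, under which 13138 of 56605 probes passed, Sds (adjusted p = 0.0475), Slc16a1 (0.0495) and Gpd1 (0.0243) passed.

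Of 18 genes of glucagon and cAMP signalling, 1 passed, beside 0.532% of all genes, and the median difference was 0.0074 (-0.0083 by the mean over probes). An unadjusted p under 0.05 was found for 5 of the 18, beside 14.3% of all genes. Pde4b (NM_019840), which encodes a phosphodiesterase that breaks down cAMP, read 8.52, 9.05 and 8.83 in control and 7.53, 7.83 and 7.74 in soy livers, a difference of -1.10 (SE 0.16, limma adjusted p = 0.0438) with -1.25 within slide 1 and -1.09 within slide 3. Pde4b passed without control 1 (adjusted p = 0.0468), but not without control 2 (0.119), control 3 (0.0948), soy 1 (0.122), soy 2 (0.129) or soy 3 (0.143), nor with slide as a block (0.171) or the replicate number as a block (0.0519). It also did not pass with a normexp offset of 16 (0.0752), with cyclic loess (0.0572) or by the mean over its probes, which was at -0.56 (0.0735), and in all it lost its call under 10 of 18 alternatives. Of its 2 other probes 1 was detected on control arrays alone, at least 1.503-fold lower in soy livers (adjusted p = 0.215) when each soy array was given the higher of the probe's own signal and the lowest signal well above background, and 1 on no array. Sik1, a cAMP-induced kinase gene whose product restrains CRTC2, was at -0.82 (adjusted p = 0.239), Pde4d at 0.59 (adjusted p = 0.106), Gnas, the stimulatory G protein gene, at 0.45 (adjusted p = 0.301) and Prkar2a at 0.38 (adjusted p = 0.316).

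Of 17 genes for transcription factors and cofactors that act on gluconeogenic genes, 0 passed by limma and the median difference was -0.07. An unadjusted p under 0.05 was found for 4 of them (23.5%), beside 14.3% of all genes. Klf15, a regulator of amino acid breakdown for gluconeogenesis, was at -0.81 (SE 0.29, limma adjusted p = 0.348), and Cebpb, which binds the Pck1 promoter, at -0.66 (SE 0.21, adjusted p = 0.293). With 1 array left out the Klf15 difference ran from -1.15 to -0.52. Tcf7l2, a Wnt pathway factor, was at 0.65 (SE 0.12, adjusted p = 0.0955) by its brightest probe, with 0.03, 0.54 and 0.32 on the others.

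Ppargc1b, the paralog of Ppargc1a, read 12.27, 11.81 and 10.55 in control and 11.11, 11.03 and 10.70 in soy livers, a difference of -0.59 (SE 0.39, adjusted p = 0.622). As for Ppargc1a, control 3 was the lowest array and control 1 and control 2 lay above the soy arrays. With 1 array left out the Ppargc1b difference ran from -1.09 without control 3 (adjusted p = 0.0967) to -0.23 without control 1 (adjusted p = 0.859). Among 12 mitochondrial genes on which PGC-1alpha is known to act, 0 passed by limma and the median difference was 0.16. An unadjusted p under 0.05 was found for 3 of them, beside 14.3% of all genes. Cpt1a, the gate of fatty acid oxidation, was at -0.51 (SE 0.15, adjusted p = 0.256), whereas Acadm was at 0.41 (adjusted p = 0.307), Sod2 at 0.38 (adjusted p = 0.196) and Cs at 0.25 (adjusted p = 0.571).

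Of 8 genes that fasting, glucocorticoids or cAMP are known to move, 3 passed, 1 higher and 2 lower, beside 0.532% of all genes. The median difference was -0.67. An unadjusted p under 0.05 was found for 7 of the 8, beside 14.3% of all genes. The count of genes that passed was 0 without soy 2, from 1 to 3 without any other array and 1 with slide as a block. Igfbp1 (NM_008341), a secreted binder of insulin-like growth factors that insulin represses, read 15.13, 14.69 and 14.28 in control and 11.73, 12.16 and 12.72 in soy livers. It fell by 2.50 (SE 0.29, limma adjusted p = 0.0244), with -3.18 within slide 1 and -1.56 within slide 3. Igfbp1 did not pass without control 1 (adjusted p = 0.0583), control 2 (0.0858), soy 1 (0.0697) or soy 2 (0.1097), nor with slide (0.163) or the replicate number (0.0863) as a block. Lpin1 (NM_001130412), a phosphatidate phosphatase that also acts as a coactivator with PGC-1alpha, read 15.06, 14.40 and 14.25 against 12.16, 11.04 and 11.44. It fell by 3.02 (SE 0.31, limma adjusted p = 0.0172). The remaining probes of the gene were at -3.16 (adjusted p = 0.0165) and -0.81 (adjusted p = 0.0370). On the brightest probe Lpin1 did not pass without control 2 (0.0531), soy 2 (0.0703) or soy 3 (0.0732), nor with slide as a block (0.0604).

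Pdk4 (NM_013743), whose product blocks the entry of pyruvate into the citric acid cycle and so spares it for glucose synthesis, moved the other way. It read 9.01, 8.43 and 8.42 in control and 10.52, 10.63 and 10.32 in soy livers, a rise of 1.87 (SE 0.18, adjusted p = 0.0151), with 1.79 within slide 1 and 1.90 within slide 3. Pdk4 did not pass without soy 1 (adjusted p = 0.0621), soy 2 (0.0703) or soy 3 (0.0538), nor with slide as a block (0.102). This list thus held genes with opposite signs. Of its genes that did not pass, Fgf21 was at 1.49 (adjusted p = 0.241, detected on 1 of 3 control arrays), Per1 at -1.03 (adjusted p = 0.431), Irs2 at -0.70 (adjusted p = 0.301) and Angptl4 at -0.64 (adjusted p = 0.0689).

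**Figure D5:**
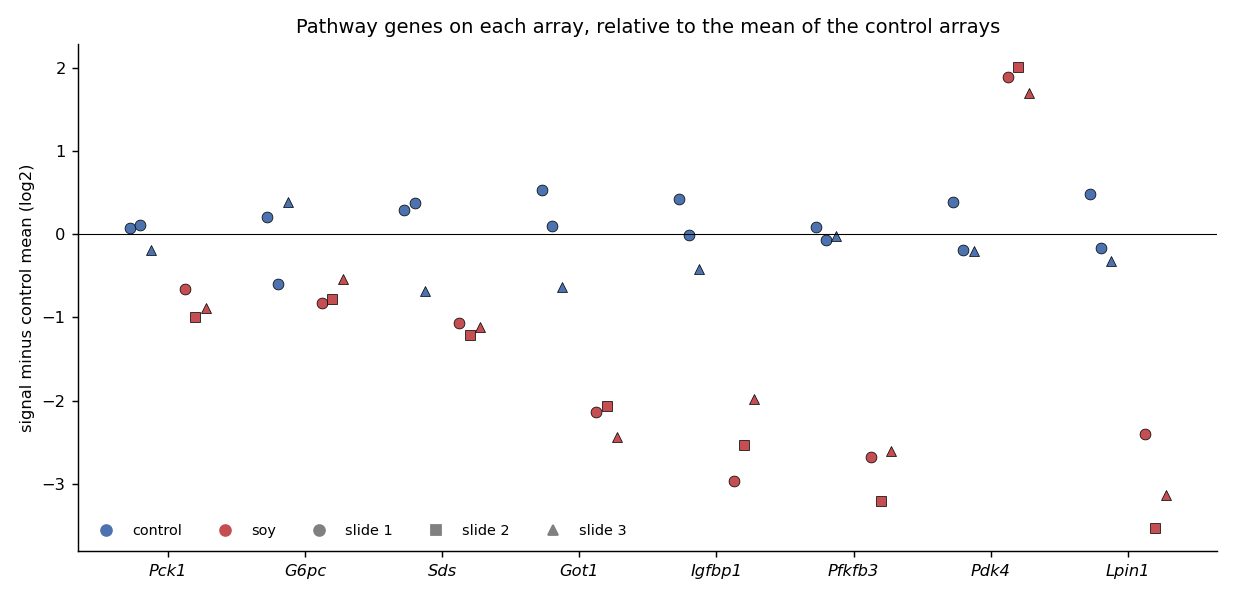
Signal of 8 pathway genes on each array minus the mean of the 3 control arrays (log2), with colour for diet and shape for slide. All 3 soy arrays lie below the control arrays for Pck1, Sds, Got1, Igfbp1, Pfkfb3 and Lpin1 and above them for Pdk4, and for G6pc the control 2 array lies among the soy arrays.

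Among 7 genes that insulin and feeding induce for fat synthesis, 0 passed by limma and 5 had an unadjusted p under 0.05, beside 14.3% of all genes. The median difference was -0.41, and -0.195 under the 75th-percentile shift. The value of -0.41 is that of Pnpla3, whose brightest probe was detected on no soy array. Elovl6 was at -1.06 (SE 0.28, adjusted p = 0.196) and Acly at -0.50 (adjusted p = 0.364), while Srebf1, the master factor of this program, was at 0.68 (SE 0.34, adjusted p = 0.512) and Me1 at 0.67 (SE 0.16, adjusted p = 0.152). The signs within this list were mixed.

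Pck1 and G6pc are expressed mainly in the periportal zone of the liver lobule, so markers of the zones were set beside them. Of 7 periportal markers, 0 passed by limma and 4 had an unadjusted p under 0.05, beside 14.3% of all genes. In soy livers 5 were lower (6 under the processed signal, the 75th-percentile shift and cyclic loess), where 48.8% of all genes were higher. The summed signal of the 7 markers on the linear scale was 774689, 754478 and 684326 on the control arrays, against 652793, 532999 and 588548 on those of soy mice, a ratio of 0.802. Every soy array thus lay below every control array, as for Pck1, for 10.8% of all genes and for the summed pancreas markers given below. Cyp2f2, the brightest marker over all arrays, was at -0.07, whereas Ass1 had the higher mean in control livers. Ass1 was at -0.55 (SE 0.14, adjusted p = 0.171), Cps1 at -0.47 (SE 0.12, adjusted p = 0.176) and Gls2 at -0.43 (adjusted p = 0.387). The part of the periportal markers in the Pck1 difference was not tested.

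Of 7 pericentral markers, 0 passed, 1 had an unadjusted p under 0.05 (beside 14.3% of all genes) and 6 were lower in soy livers. The sum of these markers had a soy over control ratio of 0.878, with 635570, 671822 and 647521 on the control arrays, against 636616, 563767 and 515436 on those of soy mice. The pericentral groups overlapped, and Cyp2e1 was the brightest gene. Oat was at -1.28 (SE 0.20, limma adjusted p = 0.0591). Oat passed, as 1 of the 7, with the processed signal (0.00981), the 75th-percentile shift (0.0425), detected probes only (0.0302), trend and robust eBayes (0.0449) and without soy 1 (0.0381). The 6 general hepatocyte markers had a ratio of 0.963 with Alb the brightest, and 0 of them passed in the reported fit. Fga passed, as 1 of the 6, with the processed signal and with detected probes only. The dimmer Fga probe was at -0.93 (limma adjusted p = 0.0756) in the reported fit.

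Markers of other cells also held 0 genes that passed by limma in each list. The soy over control ratio of the summed signal was 1.16 for 6 Kupffer cell markers (brightest Cd5l), 1.08 for 6 endothelial markers (Clec4g), 0.928 for 5 stellate cell markers (Dcn), 1.08 for 5 cholangiocyte markers (Spp1, with Epcam detected on no array) and 1.04 for 7 red cell and leukocyte markers (Alas2). Of the 6 endothelial markers, 4 were lower in soy livers and the median difference was -0.10, so their summed ratio does not give the sign of most members. Control 2 had the lowest sum of red cell and leukocyte markers, and without it the ratio of that list was 0.833. No other of these marker ratios crossed 1 with 1 array left out, a check chosen after the data were seen. At an unadjusted p under 0.05, which 14.3% of all genes had, 1 gene was counted among the stellate cell markers and 0 in each of these other lists. For adipocytes the ratio was 0.904, 0 of 5 markers had an unadjusted p under 0.05, and Adipoq and Plin1 were detected on no array. The summed pancreas markers were 7955, 8196 and 7180 on the control arrays, against 6575, 5915 and 5447 on those of soy mice, a ratio of 0.769, and 2 of 5 had an unadjusted p under 0.05. The brightest pancreas gene was Amy2a5, and Cela2a was at -1.21 (adjusted p = 0.0727). The part of these markers in the Pck1 and G6pc differences was not tested.

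The arrays also differed in how many spots were detected, with 37010, 36366 and 38163 of 59305 spots on the control arrays, against 31308, 31988 and 32498 on those of soy mice. The soy arrays thus had fewer detected spots, and what part this has in the gluconeogenesis values was not tested. Every member's brightest probe was detected on all of them.

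The genes whose pattern over the 6 arrays was most like that of Pck1, by Pearson correlation among 13488 genes detected on all arrays, were Nrg4 (r = 0.999), Med17 (r = 0.998) and Ubtf (r = 0.997). These points share their arrays, and both groups are in the correlation. Nrg4, a growth factor gene, read 12.58, 12.52 and 11.39 in control and 9.79, 8.53 and 8.87 in soy livers and fell by 3.10 (SE 0.40, limma adjusted p = 0.0329). Med17, a Mediator subunit gene, was at -0.20 (adjusted p = 0.442), and Ubtf, which encodes a ribosomal RNA transcription factor, at -0.50 (adjusted p = 0.121). Since these genes were chosen as the highest of 13488 correlations over 6 arrays, their likeness to Pck1 in shape follows from the choice. Their differences were of very different size.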

How the data were processed

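Liver gene expression was measured in 6 mice on 1-colour Agilent arrays. The authors deposited, per the file headers, Feature Extraction 11.5.1.1 output which holds per spot a median intensity and a local background intensity, neither corrected nor scaled, a processed intensity, and a mark for detected spots. They also deposited a table of log2 values with a median of 7.2 on each array, within 0.0561 of the values below. Its normalization is not given in the sources used here.

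Median intensities were corrected with normexp (offset 50), control spots left out, arrays quantile normalized and log2 transformed, outlier spots left out and spots of a probe averaged. Soy was compared with control on all 56605 probes with limma 3.58.1 (lmFit, eBayes) in R 4.3.3, with Benjamini-Hochberg adjustment over all probes. A gene is given by its brightest probe and passed when any probe did. RefSeq accessions were named through a GRCm38.p6 table (32994 probes, 58.3%), whereas the headers name mm9, so no probe positions are given. Figures and promoter searches used Python 3.11.15, pandas 2.3.3 and matplotlib 3.10.9. Precision is limited by having 3 arrays per group.

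The members, lists and naming rule were chosen with earlier results of these data known. Named in each list were the genes that passed and the 4 with the largest difference among the rest that were detected throughout a group. A few such genes are not reported here. Data were simulated for the same group sizes with 56526 probes, each drawn independently with its own mean and SD. Of the simulated probes, 60% of those changed by 1 (log2) and 94% of those changed by 2 passed, with 5 unchanged probes. No slide effect was simulated, so these shares need not hold for the real arrays. The alternatives were no background correction, offset 16, cyclic loess, a 75th-percentile shift, the processed signal, detected probes only, outlier spots kept, trend and robust eBayes, the mean over probes, a replicate or slide block, the deposited values, adjusted p alone, and leaving out each array.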

Additional observations from a re-analysis of the deposited data

How the results depend on the processing

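Of 180 values for the 10 gluconeogenesis genes under 18 alternatives (calling by adjusted p alone refits no value and left all counts the same), 162 kept their sign and their side of the threshold, 6 passed where the reported one did not (all Pck1) and 12 changed sign. Among the genes taken from the other lists by the rule for named genes, 1216 values kept both, 17 passed only under the alternative, 31 no longer passed and 14 changed sign. The 17 were 5 of Oat, 3 of Angptl4, 2 each of Sds and Cela2a and 1 each of Slc16a1, Gpd1, Pde4d, Tcf7l2 and Me1. Counts of probes that passed moved most. They were 198 as reported, 77 with offset 16, 13138 with the processed signal, 299 with the 75th-percentile shift, 493 with detected probes only, 130 as genes with the mean over probes, 77 with a replicate block and 24 with a slide block, and 23 to 199 with 1 array left out. The share of these higher in soy was 59.6% as reported, 90.8% with the processed signal, 67.6% with the 75th-percentile shift and 45.8% with the slide block. Both of the scalings by the 75th percentile moved the median of all probes from -0.01 to 0.13, whereas Pck1 was at -0.87 and -0.90 under them.

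Of the gluconeogenesis genes, 1 (Pck1) passed under the processed signal (adjusted p = 0.00896, where 13138 of 56605 probes passed), the 75th-percentile shift (0.0418), cyclic loess (0.0391), detected probes only (0.0302), trend and robust eBayes (0.0327) and the mean over probes (0.0480), and 0 in each fit with 1 array left out (Pck1 from 0.0631 to 0.186) or with the slide block (-0.73, adjusted p = 0.158). The 6 genes of the pathway lists became 17 with the processed signal and 3 with the slide block (Got1 and Lpin1 each by a dimmer probe, and Pfkfb3). With 1 array left out they were 4 without control 1, 2 without control 2, 6 without control 3 (5 of the reported ones, and Sds), 2 without soy 1, 1 without soy 2 (Pfkfb3) and 2 without soy 3. Pfkfb3 alone passed in every fit.

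Same-number arrays' deviations from group means correlated at 0.12, -0.06 and 0.11 (27282 probes). Controls 1 and 3 matched their own number best, control 2 soy 1 (0.09). Numbers 1 and 3 share slides, so pairing was not settled. With the replicate number as a block, 0 gluconeogenesis genes passed (Pck1 adjusted p = 0.105), and 4 of the 6 pathway genes did, without Igfbp1 (0.0863) and Pde4b (0.0519). Soy 2 is alone on its slide, and the slide block takes it out of the comparison.

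The sign changes among the gluconeogenesis genes and these named genes were as follows. Other genes of the lists also changed sign. For example, of the 18 substrate genes 10 were higher in soy livers as reported, 8 with the 75th-percentile shift and 12 with the slide block. Pcx was 0.023 with the processed signal, 0.0028 with cyclic loess, 0.084 with the slide block and -0.068 to 0.095 with 1 array left out (above 0 without control 1, and 0.062 without soy 2). Fbp1 was -0.0030 with the 75th-percentile shift and -0.014 to 0.078 with 1 array left out (below 0 without control 3 or soy 1). Ppargc1a was -0.023 with the mean over probes and -0.51 (without control 3) to 0.33 with 1 array left out, and -0.025 without soy 1. Gcgr was -0.015 (without soy 2) to 0.16 with 1 array left out. Alb was 0.0076 with the processed signal and 0.033 with cyclic loess. Lrat was 0.031 with the processed signal, 0.016 with the 75th-percentile shift, 0.20 with the slide block and -0.24 to 0.16 with 1 array left out. Krt7 was 0.081 with the 75th-percentile shift and Sox9 0.093 with the mean over probes. With 1 array left out, Alas2 lay between -0.42 (without control 2) and 0.85, Slc1a2 between -0.42 and 0.14 (without control 3), Fga between -0.64 and 0.047 (without soy 1) and Krt19 between -0.013 (without soy 1) and 0.22. The causes were not tested.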
